A study of Mus musculus with 12 samples.

Results

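The 9 genes described here write, copy or remove DNA methylation: Dnmt1, Uhrf1, Dnmt3a, Dnmt3b, Dnmt3l, Tet1, Tet2, Tet3 and Tdg. They were taken by name from the 22350 protein-coding genes of GENCODE vM1 on the mouse build mm9, and every CpG from 2000 bp upstream of each gene start to the gene end was used, whatever its methylation. The reference holds 7329 CpGs in these stretches, of which 2492 were read in some sample, 832 reached 10 reads in some sample and 23 reached 10 reads in all 12 samples. A promoter was the 1000 bp on either side of the gene start, and a body ran from there to the gene end.

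DNA methylation had been measured in oral soft tissue of female B6C3F1/J mice that were 8 weeks old when the study began. The 4 groups of 3 samples were DMSO, the vehicle, DBP, DBP with a chemopreventive agent left unnamed in the labels, and DBP with a chemopreventive agent labelled BR extract. DBP, a polycyclic aromatic hydrocarbon that causes oral tumours in mice, was applied in the oral cavity on 3 days of each of 5 weeks at a dose of 24 nmol, and tissue was taken 48 h after the end of dosing, while dose, route and timing of both agents were not given in the sources used here. The comparison of DBP with DMSO asks what the carcinogen did to methylation before tumours form, and the comparisons of each agent with DBP share the same 3 DBP samples. Buccal mucosa, floor of the mouth and tissue of the hard palate were pooled for each DNA preparation, so that a change in one cell type and a change in the mixture of cell types cannot be told apart. Since the labels do not say how many mice gave each sample, p-values from edgeR, limma and the permutation tests measure only the spread between these samples, which may be technical. The p- and q-values of the logistic regression on single CpGs measure only the sampling of reads and hold no spread between samples, and they were computed after coverage scaling had multiplied DBP reads by 1.94 and 2.56 in the comparisons with the unnamed agent and BR extract.

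DNA methyltransferases place a methyl group on the cytosine of CpG sites. Dnmt1, guided by Uhrf1 to newly replicated DNA, copies the pattern of the parent strand, while Dnmt3a and Dnmt3b with their partner Dnmt3l set methylation on unmethylated DNA. Tet1, Tet2 and Tet3 oxidise 5-methylcytosine, and Tdg cuts out the oxidised bases, which base excision repair then replaces with cytosine. Promoters rich in CpGs are usually unmethylated in tissues that can express the gene, and the bodies of such genes are usually methylated. Bisulfite reads do not separate 5-methylcytosine from 5-hydroxymethylcytosine, the first product of the Tet enzymes.

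The assay was ERRBS, in which DNA is cut by MspI at CCGG, treated with bisulfite and read as sequence, and every read records a CpG as methylated or unmethylated. The samples held 3287367 to 7774032 calls in the DMSO group, 7515975 to 7974299 in the DBP group, 16908728 to 39615620 with the unnamed agent and 17712547 to 78889043 with BR extract. Depth thus changed with the treatment in the comparisons of the agents, and its part in their results was not tested. The share of all calls that were methylated was 38.3% ± 4.72 (SD, n = 3) with DMSO, 35.2% ± 1.37 with DBP, 32.8% ± 2.50 with the unnamed agent and 34.2% ± 4.98 with BR extract. The promoters of the tissue markers were read too thinly to check the label: 2 of 7 squamous epithelial genes, 2 of 5 skeletal muscle genes and 0 of 4 blood genes had 10 calls in every sample. Of these, the promoter of Krt4, a keratin of oral mucosa, was methylated to 88.5% and that of Perp, a desmosome protein, to 11.4%. Percentages below are shares of methylated calls, given as mean ± SD over samples, and all intervals cover counting error only, because the PCR copies of a molecule could not be told from separate molecules.

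Most of the promoters were nearly unmethylated in every group, and that of Dnmt3l was not. Over 12 samples the promoters of Uhrf1, Tdg, Tet2, Dnmt3b and Dnmt1 had 3.58% ± 1.22, 3.71% ± 1.28, 4.19% ± 2.04, 4.71% ± 2.06 and 6.62% ± 2.03 of their calls methylated. These 5 ranges overlapped, from 0.727% in the lowest Tet2 sample to 10.2% in the highest Dnmt1 sample, so the order within this group was not resolved. The Tet3 promoter stood higher at 20.5% ± 8.24, and that of Dnmt3l was mostly methylated at 67.6% ± 14.5, with a lowest sample of 42.9% that lay above the highest Tet3 sample of 38.2%. The promoters of Dnmt3a and Tet1 could not be tested, because some sample had fewer than 10 calls there. The median of the 7 promoters that could be tested was 4.71%, beside a median of 6.13% over the 11772 protein-coding promoters with 10 calls in every sample, each gene symbol counted once, of which 88.7% lay under 20%.

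**Figure D1:**
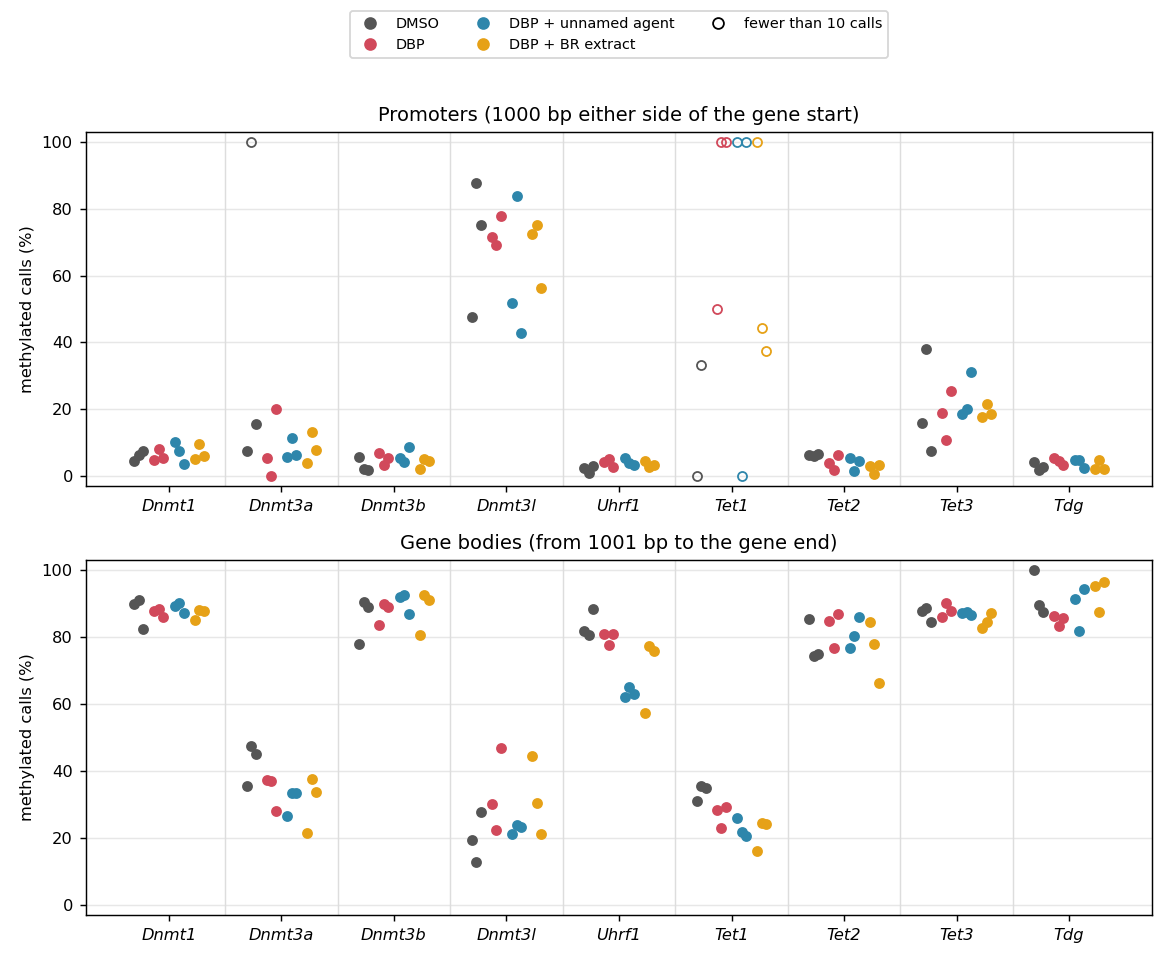
Percent of methylated calls (vertical axis) in the promoter (upper panel) and the body (lower panel) of each of the 9 genes, with 1 point per sample, coloured by group, and open points for samples with fewer than 10 calls. The promoters of Dnmt1, Dnmt3b, Uhrf1, Tet2 and Tdg lie between 0.727% and 10.2% in every sample and that of Dnmt3l between 42.9% and 87.5%, whereas the bodies of Dnmt3a, Dnmt3l and Tet1 lie below 50% and the other bodies above it.

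Most of the methylation in these promoters was read at the MspI sites themselves. CpGs inside CCGG, which stand at the first base of a read, were 14.6% of the CpGs read in the 9 promoters and gave 15.1% of the calls. They were methylated to 32.2% ± 3.72 (27.2% to 40.2%), and the other promoter CpGs to 1.10% ± 0.543 (0.412% to 2.16%). The CCGG level was higher in 12 of 12 samples (two-sided exact permutation p = 0.000488, the smallest that 12 pairs allow). The same held over all protein-coding promoters, with 31.9% ± 1.86 against 2.88% ± 0.494, and the cause was not tested. Without CCGG sites the promoters of Dnmt1, Uhrf1, Dnmt3b, Tet2 and Tdg stood at 0.521%, 0.310%, 1.29%, 0.559% and 0.262%, and that of Tet3 at 5.13%, while that of Dnmt3l had a mean of 63.5% ± 25.3 over samples that ran from 0% to 100%, at as few as 2 calls. Among the 258 promoter CpGs with 10 reads in some sample, 27 of 43 in CCGG lay between 20% and 80%, against 2 of 215 of the others.

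**Figure D2:**
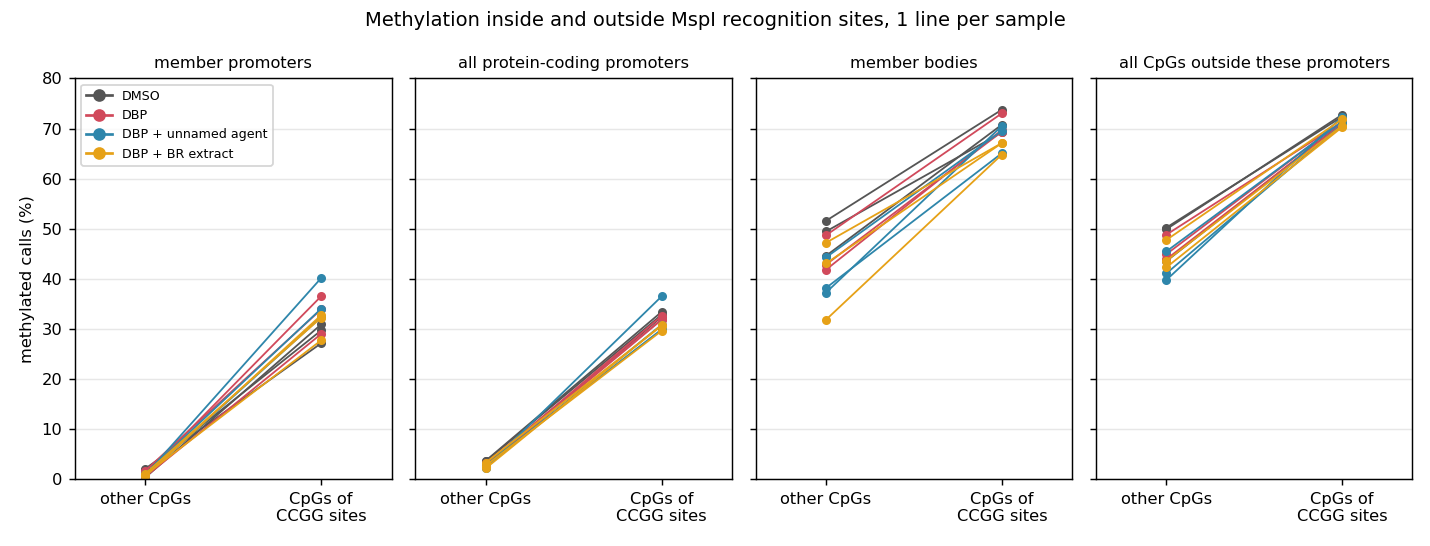
Percent of methylated calls (vertical axis) at CpGs outside and inside CCGG sites, joined by 1 line per sample and coloured by group, for the promoters of the 9 genes, all protein-coding promoters, the bodies of the 9 genes and all CpGs outside these promoters. In the 9 promoters every sample rises from at most 2.16% to at least 27.2%, and every line of the other 3 panels rises too.

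Dnmt1, the maintenance methyltransferase, lies on the minus strand at chr9:20711650-20757317. Its promoter held 78 CpGs, and the per-sample levels were 4.55%, 6.25% and 7.69% with DMSO, 4.83%, 8.11% and 5.41% with DBP, 10.2%, 7.66% and 3.85% with the unnamed agent and 5.30%, 9.68% and 6.00% with BR extract. The 4 groups overlapped throughout. Its body was methylated to 87.7% ± 2.40, between 82.5% and 91.1%. Within 1-kb windows the mean was 6.81% in the first 1000 bp, and 37.1% and 59.6% in the windows that began 8000 and 9000 bp after the start. These 2 windows held as few as 5 and 2 calls in a sample. Of all their calls 37.2% and 51.0% were methylated, or 0% and 46% without CCGG sites. All 7 further windows up to 44000 bp had means above 90%. The last window, at 45000 bp, was read in 9 samples with 123 calls in all, and its mean was 60.8% ± 33.7. A separate RefSeq start at -7015 bp from the gene start was read in 11 samples and was methylated to 87.6% ± 13.1.

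The CpG with the smallest p-value of the 9 genes lay in a Dnmt1 intron, 21707 bp after the start at chr9:20735610-20735611. It is shown with the neighbouring MspI site because logistic regression called it against DBP with both agents. The sequence is the minus strand of chr9:20735600-20735642 in mm9, with the MspI site in capitals, and the CpG in question is the cg of the run actgtcga.
Dnmt1 intron: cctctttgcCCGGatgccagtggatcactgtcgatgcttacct
Methylated reads were 71 of 74, 73 of 79 and 36 of 44 with DMSO, 63 of 74, 58 of 64 and 23 of 30 with DBP, 166 of 185, 157 of 157 and 114 of 114 with the unnamed agent, and 64 of 64, 226 of 226 and 135 of 135 with BR extract. All 3 BR extract samples were fully methylated and stood above all DBP samples, whereas the lowest sample with the unnamed agent, at 89.7%, lay below the highest DBP sample, at 90.6%. The 95% Wilson intervals were 59.1% to 88.2% for the lowest DBP sample and 98.3% to 100% for the deepest BR extract sample. The difference from DBP was 10.9 points with the unnamed agent (logistic regression, q = 1.60e-06) and 14.2 points with BR extract (q = 7.64e-25). edgeR, which lets samples vary beyond read sampling, gave unadjusted p = 0.00608 and 4.34e-07 and called neither at q under 0.01. The limit used for promoters and bodies, adjusted p under 0.05, is less strict and was not applied to single CpGs by edgeR. Between DBP and DMSO the difference was -4.87 points (q = 0.656).
The CpG of the MspI site beside it had the opposite sign with BR extract. It held 60 of 67, 61 of 68 and 29 of 30 methylated reads with DBP, and 62 of 75, 186 of 220 and 118 of 137 with BR extract. Here the BR extract samples were lower than all DBP samples, by 5.93 points (q = 0.0221), and the difference was not called. With the unnamed agent 179 of 189, 160 of 163 and 108 of 113 reads were methylated, which overlapped with DBP. That difference of 5.82 points (q = 0.00900) was too small for a call, and edgeR gave an unadjusted p of 0.208.

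Uhrf1, which binds hemimethylated CpGs and brings Dnmt1 to them, lies at chr17:56442744-56462909 on the plus strand. Its promoter had the lowest mean of those tested, within the spread of the next 4. The samples stood at 2.58%, 0.99% and 3.23% with DMSO, 4.40%, 5.18% and 2.90% with DBP, 5.36%, 3.91% and 3.50% with the unnamed agent and 4.62%, 2.82% and 3.53% with BR extract. DBP was higher than DMSO by 1.89 points on average, with overlapping samples and an unadjusted edgeR p of 0.0493 (adjusted p = 1). The difference was 11.4 points at CpGs of CCGG sites and 0.182 points at the others. Without CCGG sites, or with equal library sizes, no member promoter had an unadjusted edgeR p under 0.05 in this comparison. A promoter CpG read at a level above 20% was the MspI site 732 bp after the start, in an intron and shown in capitals within chr17:56443466-56443487, plus strand.
Uhrf1 intron: gcgtggggtCCGGcggggaagt
Over all samples 200 of 734 reads were methylated at this site, 0 of 609 at the CpG before it, which allows a level of up to 0.493%, and 12 of 226 at the CpG after it. At the MspI site the reads were 4 of 48, 2 of 16 and 3 of 16 with DMSO and 6 of 19, 14 of 36 and 4 of 30 with DBP. The highest DMSO sample, at 18.8%, lay above the lowest DBP sample, at 13.3%, and the difference of 12.9 points was not called (q = 0.440).

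The Uhrf1 body was 1 of the 2 member bodies with an unadjusted p under 0.05 over 4 groups. It was methylated to 81.7%, 80.5% and 88.2% with DMSO, 81.0%, 77.6% and 81.0% with DBP, 62.2%, 65.0% and 63.0% with the unnamed agent and 57.3%, 77.2% and 76.0% with BR extract. Every sample with either agent lay below every DBP sample (two-sided exact permutation p = 0.1 in both, the smallest that 3 against 3 samples allow). The edgeR test over 4 groups gave unadjusted p = 0.0153 and adjusted p = 0.972. The samples did not read the same CpGs of this body. The first 1000 bp of the body, methylated to 13.6% ± 6.10, supplied 3.76% ± 6.51 of the body calls with DMSO, 16.0% ± 1.81 with DBP, 29.8% ± 3.61 with the unnamed agent and 26.6% ± 15.2 with BR extract. The rest of the body stood at 85.9% ± 4.67, 92.0% ± 2.60, 87.0% ± 5.18 and 91.3% ± 3.97. Given the mean level of each CpG, the CpGs read would by themselves have given 84.4%, 78.5%, 64.7% and 69.3%, and after this adjustment limma gave an unadjusted p of 0.906. The distance over which the gene passes from unmethylated to methylated is drawn in the plot of 1-kb windows.

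**Figure D3:**
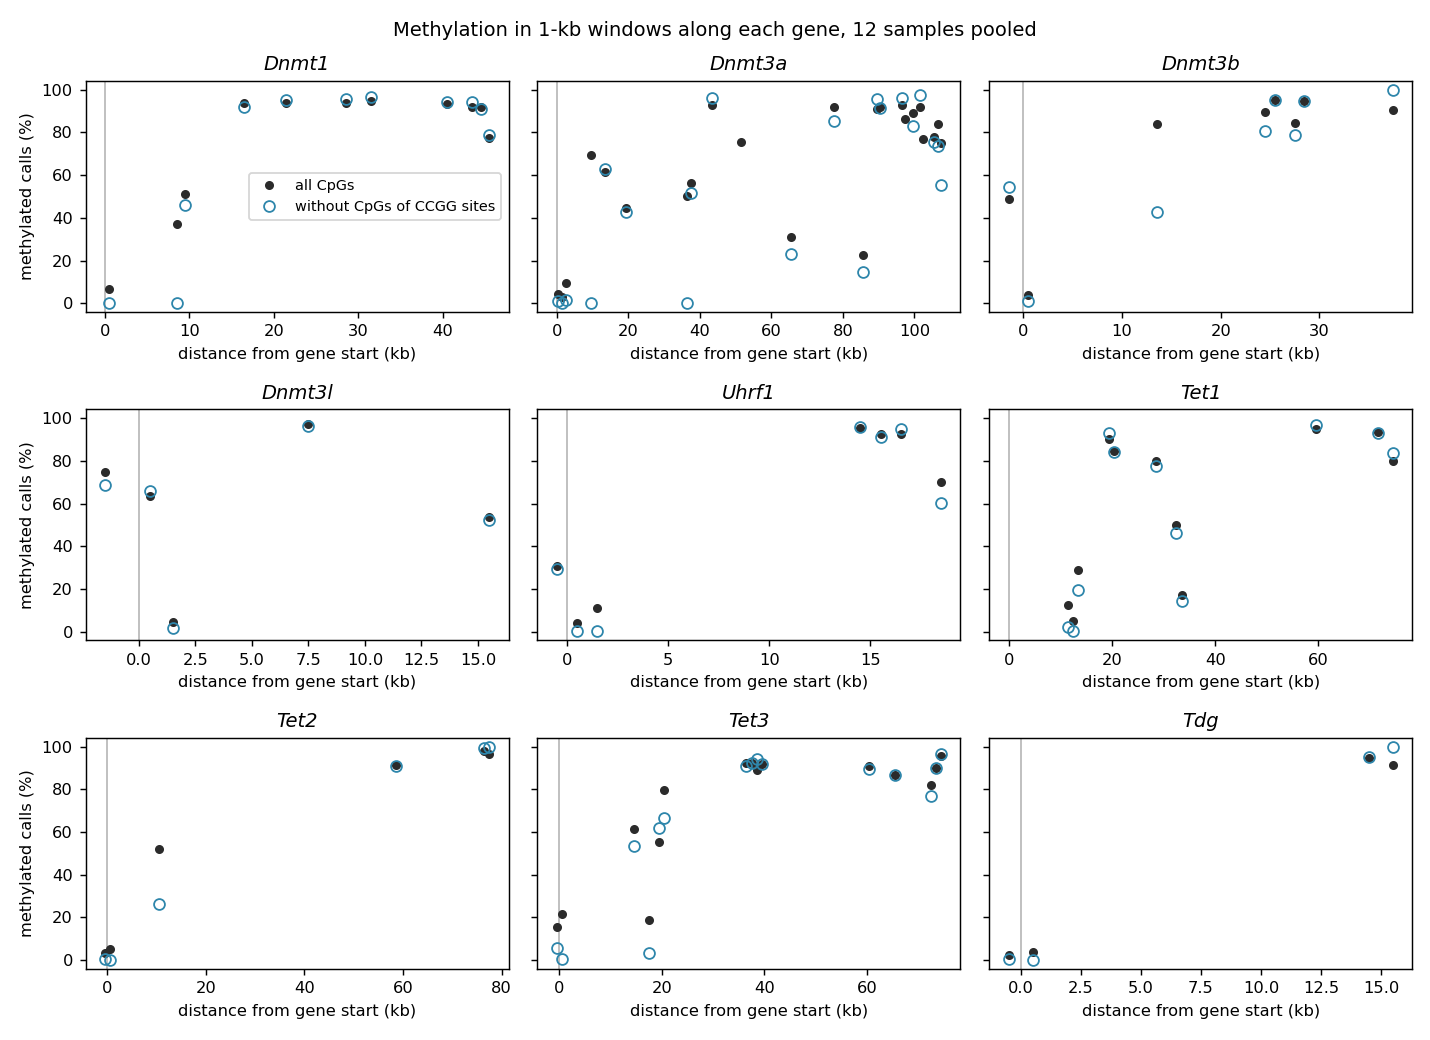
Percent of methylated calls pooled over the 12 samples (vertical axis) in 1-kb windows against distance from the gene start in kb, 1 panel per gene, for windows with at least 100 calls; filled points use all CpGs and open points leave out CpGs of CCGG sites. The windows near 0% include that at 1000 bp in Dnmt3l, with 4.68%, and that at 12000 bp in Tet1, with 5.24%, and most windows farther into the genes lie above 80%.

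Dnmt3a, a de novo methyltransferase, lies at chr12:3806007-3914443 on the plus strand and is the longest of the 9 genes. Its promoter by gene start was read by 1 to 774 calls per sample and was not tested. The 2 RefSeq starts 973 and 1153 bp downstream were read better, and the CpGs around them were methylated to 4.08% ± 1.51, or 0.932% without CCGG sites. Here the samples ranged from 3.70% to 5.56% with DMSO, 2.73% to 4.13% with DBP, 3.33% to 4.57% with the unnamed agent and 2.25% to 7.88% with BR extract, and each pair of groups compared overlapped. A further start 85721 bp into the gene, from which a shorter transcript runs, was at 20.2% ± 5.66, between 11.2% and 30.1%. By contrast, the transcript starts 88817, 89586 and 100809 bp into the gene stood at 80.3% ± 17.6, 87.5% ± 11.7 and 84.8% ± 11.5.
The Dnmt3a body was methylated to 34.7% ± 7.24, and its samples were 35.6%, 47.5% and 45% with DMSO, 37.2%, 36.9% and 28.0% with DBP, 26.7%, 33.6% and 33.3% with the unnamed agent and 21.5%, 37.5% and 33.8% with BR extract. All groups overlapped with the DBP samples. Many of the calls came from near the start: the first 2000 bp of the body, at 6.52% ± 2.39, gave 47.6% ± 13.4 of the body calls, and the rest of the body was at 61.3% ± 5.09.

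Dnmt3b, the other de novo methyltransferase, lies at chr2:153475186-153513466 on the plus strand. Its promoter holds 131 CpGs and was read by 99 to 6266 calls per sample. It was methylated to 5.71%, 2.21% and 2.02% with DMSO, 6.996%, 3.28% and 5.41% with DBP, 5.48%, 4.34% and 8.89% with the unnamed agent and 2.28%, 5.14% and 4.75% with BR extract. The groups overlapped in all 3 comparisons. The body stood at 87.9% ± 4.83. A single MspI fragment in an intron, which also lies within the gene 7530422B04Rik, held 8 CpGs read in every sample and shows how one site can differ from its neighbours. It is given as the plus strand of chr2:153475562-153475630, with the MspI site in capitals.
Dnmt3b intron: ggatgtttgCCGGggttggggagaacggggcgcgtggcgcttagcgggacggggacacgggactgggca
The MspI site was methylated in 226 of 627 reads, or 36.0%. The next 6 CpGs were methylated in 0.140% to 1.39% of the reads, and the last one, 433 bp after the gene start and near the end of the reads, in 12.4%.
At this last CpG the methylated reads were 2 of 27, 0 of 14 and 0 of 11 with DMSO, 1 of 14, 0 of 31 and 5 of 59 with DBP, 14 of 170, 15 of 109 and 22 of 68 with the unnamed agent, and 0 of 63, 4 of 53 and 26 of 100 with BR extract. The lowest sample with the unnamed agent, at 8.24%, lay just below the highest DBP sample, at 8.47%, and 1 BR extract sample had no methylated read. The difference of 10.1 points between the unnamed agent and DBP was called (q = 0.00378), but edgeR gave an unadjusted p of 0.124. At the MspI site of the fragment the same comparison gave 11.4 points (q = 0.0687), which was not called. Among the CpGs between, the one 413 bp after the gene start had 1 of 14, 2 of 30 and 1 of 59 methylated reads with DBP and none in the 9 other samples. Its differences of -4.02 and -4.15 points (q = 0.000754 and 0.000411) were too small for a call.

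Dnmt3l, which has no catalytic activity and stimulates Dnmt3a and Dnmt3b, is expressed mainly in germ cells and early embryos, and it was the only one of the 7 tested promoters that was mostly methylated. It lies at chr10:77504692-77526367 on the plus strand. Its promoter held only 32 CpGs, of which 12 were read by 13 to 96 calls per sample. The samples stood at 47.6%, 87.5% and 75% with DMSO, 71.4%, 69.2% and 77.8% with DBP, 51.8%, 83.9% and 42.9% with the unnamed agent and 72.5%, 75% and 56.2% with BR extract. The groups overlapped. By their middle positions, the windows from 0 to 999 bp and from 1000 to 1999 bp both also lie in Aire. The former stood at 66.5% ± 14.4, and the latter at 5.74% ± 6.15 over 29 CpGs. At 15000 bp methylation was 57.9% ± 9.10. The Dnmt3l body therefore had a low level of 26.96% ± 9.96, and its first 2000 bp supplied 9.34% to 82.4% of its calls.

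Tet1, the dioxygenase best known from embryonic stem cells, lies on the minus strand at chr10:62267318-62361866. Around its GENCODE gene start there were 23 CpGs and at most 9 calls in a sample. The RefSeq start lies 11794 bp further into the gene, and 71 of the 87 CpGs around it were read by 200 to 4793 calls per sample. The promoter given by RefSeq for this start, 250 bases before to 50 after it, is printed with its 17 CpGs in capitals because this is the CpG-rich promoter of the gene. It came from a table on GRCm38.p6 and matched mm9 exactly once, on the minus strand of chr10:62350023-62350322.
Tet1 RefSeq promoter: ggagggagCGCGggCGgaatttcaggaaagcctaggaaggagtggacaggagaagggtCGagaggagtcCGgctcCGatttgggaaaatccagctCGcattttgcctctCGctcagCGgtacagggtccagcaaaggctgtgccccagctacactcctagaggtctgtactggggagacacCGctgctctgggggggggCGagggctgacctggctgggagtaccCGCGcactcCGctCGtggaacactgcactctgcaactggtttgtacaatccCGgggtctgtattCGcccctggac
In these 300 bases 14 of the 17 CpGs were read, with 7.81% of the calls methylated, or 3.44% without CCGG sites. Of 32544 distinct RefSeq mouse promoters of this length, 94.6% held a CG, with a median of 7, and 53.0% held a CCGG on either strand, with a median of 1.
Within 1000 bp of the RefSeq start the samples stood at 10.4%, 9.92% and 8.50% with DMSO, 10.2%, 9.54% and 10.2% with DBP, 10.2%, 5.41% and 9.66% with the unnamed agent and 5.57%, 6.48% and 5.51% with BR extract. All 3 BR extract samples lay below all DBP samples. This window was added after its levels were seen and was not tested, and among all promoters 10.1% separated BR extract from DBP in this way. Without CCGG sites the BR extract samples, at 0.156% to 1.58%, overlapped with the DBP samples, at 0.475% to 1.76%. The GENCODE start 19104 bp into the gene was methylated to 89.6% ± 7.32.

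The Tet1 body was the other with an unadjusted p under 0.05, and its mean level of 26.2% ± 5.80 was close to that of the Dnmt3l body. It was methylated to 30.9%, 35.4% and 35.0% with DMSO, 28.2%, 23.1% and 29.2% with DBP, 25.9%, 21.6% and 20.6% with the unnamed agent and 16.0%, 24.4% and 24.2% with BR extract. The DBP samples all lay below the DMSO samples, by 6.93 points on average (two-sided exact permutation p = 0.1), while those of both agents overlapped with DBP. The edgeR test over 4 groups gave unadjusted p = 0.0120 and adjusted p = 0.972. Here too the CpGs read differed between the groups: the 1000 bp on either side of the RefSeq start gave 59.9% ± 4.94 of the body calls with DMSO and 70.2% ± 3.35, 71.4% ± 1.82 and 70.6% ± 1.81 in the other groups. The level expected from the CpGs read was 33.6%, 25.4%, 23.0% and 22.6%, which left differences from the observed means of 0.187, 1.398, -0.250 and -1.05 points. The limma p after this adjustment was 0.745, with the same limit as for Uhrf1, since the expected levels came from these same samples.

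A pair of Tet1 CpGs, both in MspI sites of introns, were called between the unnamed agent and DBP. The one 12654 bp after the gene start, close to the RefSeq start, was read by at least 22 reads in every sample, and it is shown in capitals on the minus strand of chr10:62349202-62349223.
Tet1 intron: aaggctggtCCGGaattgggag
Methylated reads were 22 of 53, 13 of 31 and 7 of 22 with DMSO, 16 of 41, 17 of 57 and 30 of 68 with DBP, 33 of 163, 29 of 113 and 44 of 139 with the unnamed agent, and 61 of 140, 35 of 111 and 30 of 159 with BR extract. The 3 samples with the unnamed agent lay between 20.2% and 31.7% and overlapped with DBP at 29.8% to 44.1%. The difference was -11.4 points (q = 0.00781) and edgeR gave an unadjusted p of 0.361.
At the other, 33421 bp after the gene start at chr10:62328445-62328446, the reads were 8 of 15, 4 of 14 and 3 of 11 with DBP, 21 of 48, 1 of 38 and 3 of 56 with the unnamed agent, and 6 of 22, 2 of 8 and 1 of 10 with DMSO. Here 2 samples with the unnamed agent had at most 5.36%, and the first, at 43.8%, lay within the DBP range. This was the only CpG of the 9 genes past 25 points, at -26.1 (q = 0.000561), and edgeR gave an unadjusted p of 0.0834. With BR extract the reads were 3 of 22, 0 of 8 and 9 of 62, at most 14.5% and below every DBP sample, the lowest of which had 27.3%. That comparison was not made at 10 reads because a sample had 8, and the CpG was called in it at a minimum of 5 reads and without replicate 2 of BR extract, at -27.8 and -25.9 points.

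Tet2, the family member often mutated in blood cancers, lies on the minus strand at chr3:133126643-133207354, and its promoter held 141 CpGs, the most of the 9. The samples stood at 6.26%, 6.00% and 6.74% with DMSO, 3.92%, 1.94% and 6.37% with DBP, 5.52%, 1.69% and 4.55% with the unnamed agent and 3.25%, 0.727% and 3.35% with BR extract. One DBP sample reached the DMSO range, and the agents overlapped with DBP. The body was at 79.6% ± 6.21. The only promoter CpG over 20% with 10 reads in every sample was the MspI site at -571 bp from the start, with 26.6% ± 14.2. It was not among the CpGs tested between BR extract and DBP. In 2 of 14 alternatives it was called there, at -17.5 and -20.9 points. Its methylated reads were 7 of 24, 2 of 21 and 8 of 19 with DBP and 6 of 15, 0 of 38 and 5 of 56 with BR extract.

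Tet3, found in many adult tissues, lies on the minus strand at chr6:83312367-83391672. Its promoter samples were 16.0%, 38.2% and 7.69% with DMSO, 19.0%, 10.9% and 25.5% with DBP, 18.6%, 20.1% and 31.2% with the unnamed agent and 17.8%, 21.7% and 18.7% with BR extract. The DMSO samples alone spanned more than all others, at 13 to 81 calls each. Most of this level came from MspI sites, since the first 1000 bp of the gene had 21.7% of all calls methylated and 0.511% without CCGG sites. The body was even across samples at 86.7% ± 2.01.
A pair of MspI sites in coding exons of Tet3 were called between BR extract and DBP, in opposite directions. At 38180 bp after the start, chr6:83353492-83353493, the reads were 36 of 41, 21 of 27 and 24 of 32 with DBP and 18 of 38, 23 of 35 and 34 of 58 with BR extract. All BR extract samples, at most 65.7%, were lower than all DBP samples, at least 75%, and the difference was -22.6 points (q = 5.84e-06, edgeR unadjusted p = 0.1003). The DMSO samples, at 22 of 26, 15 of 24 and 6 of 9, lay between 62.5% and 84.6%.
At 38652 bp, chr6:83353020-83353021, the reads were 13 of 14, 11 of 12 and 10 of 13 with DBP and 95 of 97, 14 of 14 and 17 of 17 with BR extract. Again the 2 groups did not overlap, and the difference was 12.5 points (q = 0.000835, edgeR unadjusted p = 0.0755). DMSO had only 2 or 3 reads per sample here.

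**Figure D4:**
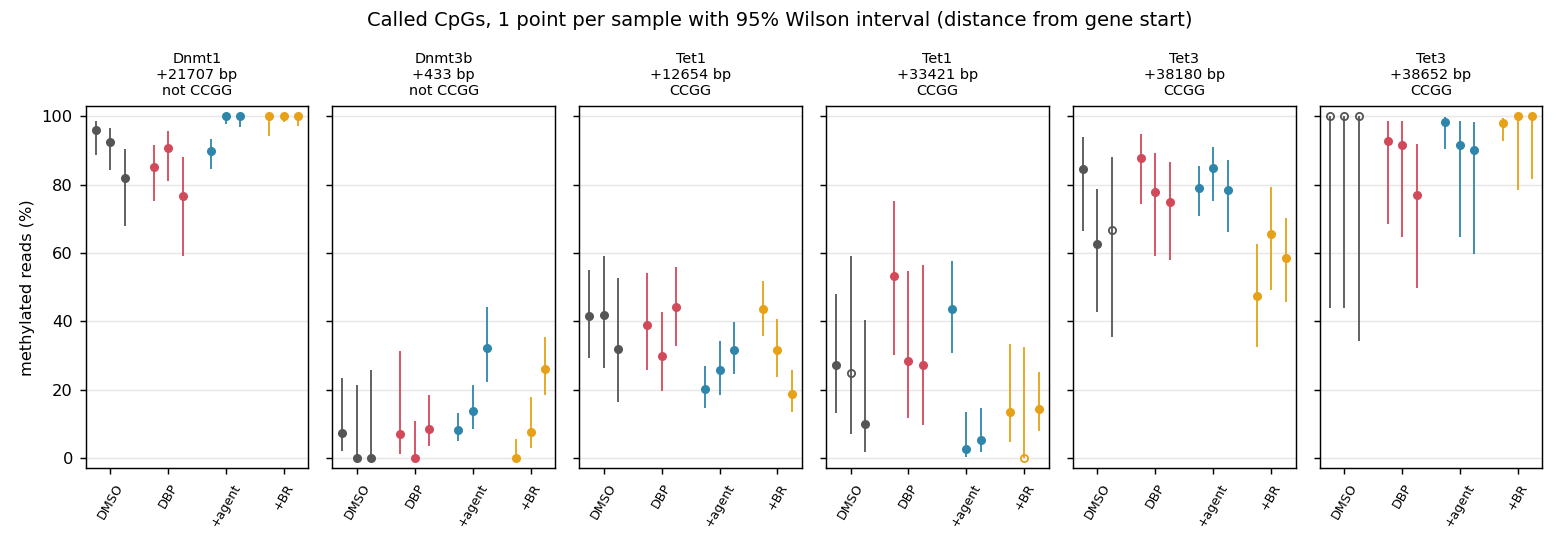
Percent of methylated reads (vertical axis) at the 6 called CpGs of Dnmt1, Dnmt3b, Tet1 and Tet3, with 1 point per sample and its 95% Wilson interval, by group; open points have fewer than 10 reads. The 3 BR extract samples stand at 100% in Dnmt1 and between 47.4% and 65.7% at the Tet3 site 38180 bp after the start, apart from DBP in both, whereas the samples of the unnamed agent overlap with DBP at the Tet1 and Dnmt3b sites.

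Tdg, the glycosylase that excises oxidised methylcytosine and thymine in T:G mismatches, lies at chr10:82092573-82113544 on the plus strand. Its promoter was among the lowest, with 4.29%, 2.05% and 2.80% with DMSO, 5.62%, 4.65% and 3.35% with DBP, 4.83%, 4.85% and 2.66% with the unnamed agent and 2.22%, 4.91% and 2.29% with BR extract. The groups overlapped. The fragment below, chr10:82092788-82092850 on the plus strand with its MspI site in capitals, is shown because it holds 10 CpGs read in every sample, of which 9 were nearly unmethylated.
Tdg intron: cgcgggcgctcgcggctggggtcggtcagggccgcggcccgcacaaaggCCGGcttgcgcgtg
The MspI site was methylated in 284 of 723 reads, or 39.3%, and the other 9 CpGs in at most 0.495% of 742 to 808 reads each, pooled over samples. At the CpG 225 bp after the gene start the methylated reads were 3 of 39, 0 of 29 and 0 of 35 with DBP. With BR extract they were 0 of 100, 0 of 43 and 0 of 119. That difference of -3.03 points (q = 0.00180) was too small for a call, and edgeR gave an unadjusted p of 0.0313. The Tdg body was read by only 16 to 87 calls per sample. It stood at 100%, 89.5% and 87.5% with DMSO, 86.2%, 83.3% and 85.7% with DBP, 91.2%, 81.8% and 94.3% with the unnamed agent and 95.3%, 87.5% and 96.5% with BR extract. DBP lay below DMSO by 7.24 points and below BR extract by 8.003 points without overlap (two-sided exact permutation p = 0.1 in both), and the unadjusted edgeR p was 0.326 and 0.139. The difference of DBP from DMSO was -13.7 points at CpGs of CCGG sites. It had the opposite sign, at 4.98 points, at the other CpGs, which held 4 to 40 calls per sample. That of BR extract from DBP was 9.63 points at CCGG sites and 3.71 points at the others.

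Counted over all 9 genes, no promoter or body passed the test. Of the 11840 promoters tested by edgeR over 4 groups, 0% passed at adjusted p under 0.05 and 3.62% at unadjusted p under 0.05, and among the members the counts were 0 and 0 of 7. In the single comparisons unadjusted p under 0.05 was met by 1 member promoter between DBP and DMSO, that of Uhrf1, beside 3.06% of all promoters, by 0 between the unnamed agent and DBP beside 2.18%, and by 0 between BR extract and DBP beside 3.78%. The samples of no member promoter separated the groups, beside 10.9%, 9.3% and 10.1% of all promoters. The median difference of the 7 promoters was 1.49 points between DBP and DMSO, 0.0972 with the unnamed agent and -1.17 with BR extract, and over all promoters it was -0.269, 0.165 and -0.350.
Of the 10524 bodies tested, 0% passed at adjusted p under 0.05 and 4.63% at unadjusted p under 0.05, and among the 9 members the counts were 0 and 2, Tet1 and Uhrf1. In the single comparisons the members counted 0 between DBP and DMSO beside 3.62% of all bodies, 1 between the unnamed agent and DBP, Uhrf1, beside 3.33%, and 0 between BR extract and DBP beside 3.8%. Groups did not overlap in 2 member bodies, 1 and 2 in these comparisons, beside 12.3%, 11.7% and 8.99% of all bodies. The median differences were -0.434, -1.85 and -3.12 points, and over all bodies -0.662, 0.183 and -0.139. A quasi-binomial test with a spread for each region called 4 promoters and 0 bodies of all genes and none of the members, and it gave unadjusted p under 0.05 for 1193 promoters and 714 bodies.

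Single CpGs were tested by logistic regression and called at q under 0.01 with a difference over 25 or over 10 points. Between DBP and DMSO 28 CpGs of the members were tested and 0 were called at either size, beside 0.0578% and 0.112% of all 53602 CpGs tested. Unadjusted p under 0.05 was met by 3 of the 28, beside 10.8% of all, and by 0 of the 28 in edgeR. Samples did not overlap in 3 of the 28, beside 5.51% of all. No CpG of Dnmt3l or Tdg had 10 reads in all 6 samples of this comparison.
Between the unnamed agent and DBP 79 member CpGs were tested, of which 1 was called over 25 points and 4 over 10 points, beside 0.754% and 5.42% of all CpGs. At unadjusted p under 0.05 there were 20 member CpGs beside 27% of all, of which 7 were higher with the agent, beside 13.1% of all, and 13 lower, beside 13.9%. Samples did not overlap in 2, beside 5.49%. Between BR extract and DBP 56 member CpGs were tested, of which 0 were called over 25 points and 3 over 10 points, beside 1.01% and 8.6% of all CpGs. No CpG of Tet2 or Dnmt3l was among the 56. Here 20 passed at unadjusted p under 0.05 beside 32.3% of all, of which 5 were higher, beside 14.2%, and 15 lower, beside 18.1%, and samples did not overlap in 6, beside 5.69%.
Without replicate 2 or replicate 3 of the unnamed agent the count over 25 points was 0 of 79 member CpGs, beside 1732 of all 127721 and 1239 of all 131828 CpGs, and without replicate 3 that over 10 points was 1 of 79, beside 6570 of all 131828. Without replicate 1 of DBP the counts against BR extract were 4 over 25 points and 7 over 10 points of 85 member CpGs tested, beside 2037 and 10043 of all 132431. The median difference of the members was 0 in both comparisons with an agent. edgeR called 0 member CpGs in any comparison and met unadjusted p under 0.05 at 0 of 28 between DBP and DMSO and at 4 of 79 and 4 of 56 against the unnamed agent and BR extract, beside 1416 of all 53602, 4072 of all 127353 and 3542 of all 104409 CpGs. CpGs of CCGG sites were 28.3% and 28.7% of all CpGs tested against DBP and 48.2% and 53.4% of those called over 10 points, and 2 of the 4 and 2 of the 3 member CpGs called were of this kind.

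**Figure D5:**
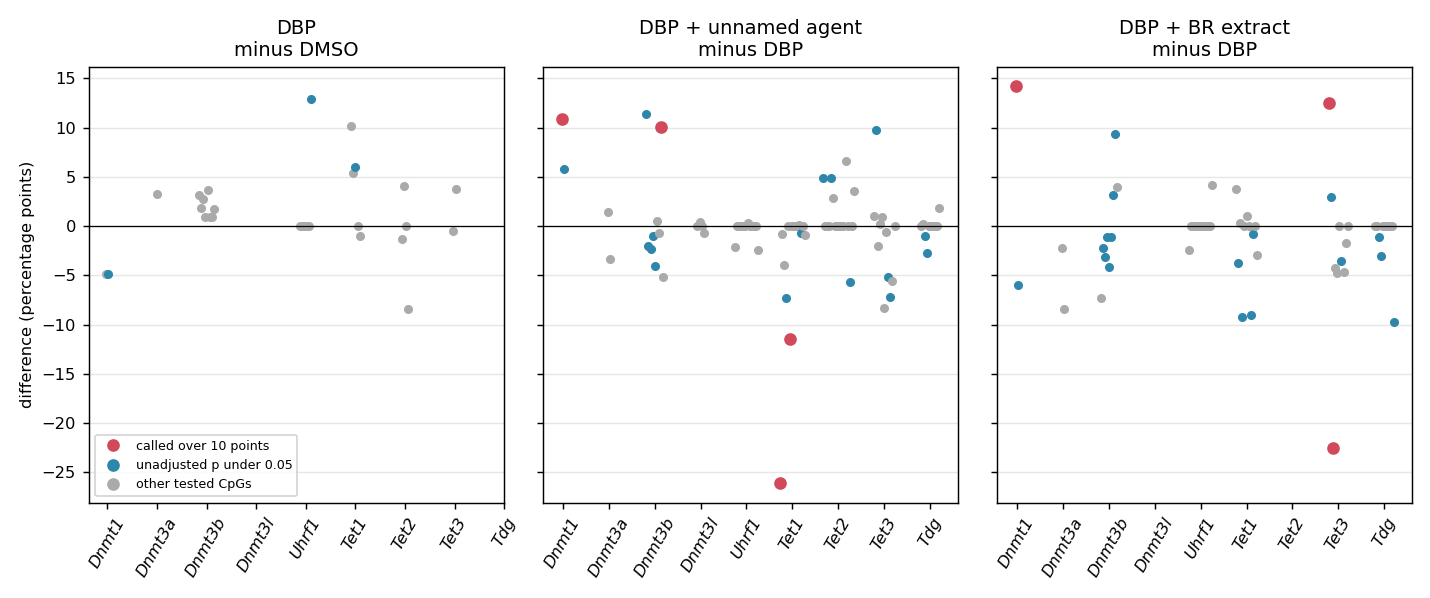
Difference in percent of methylated reads, in percentage points (vertical axis), of each tested CpG by gene in the 3 comparisons, with CpGs called over 10 points in red, other CpGs at unadjusted p under 0.05 in blue and the rest in grey. No point is red for DBP against DMSO, the red points run from -26.1 to 10.9 for the unnamed agent and from -22.6 to 14.2 for BR extract, and most CpGs lie within 5 points of 0.

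The promoters of genes that work with the 9 members were also mostly low. All 9 readers of methylated DNA had testable promoters, with a median of 9.53%, from 4.18% in Mbd2, which binds methylated CpGs, to 34.2% in Zbtb33, which lies on the X chromosome. Of the partners in maintenance and chromatin, 6 of 11 were testable, with a median of 4.198%, from 2.66% in Trim28, a corepressor, to 84.8% in Dppa3, a factor of germ cells and the early embryo. The methyl donor and 2-oxoglutarate genes had a median of 5.58% in 8 of 11, from 3.70% in Mtr, methionine synthase, to 15.7% in Gnmt, glycine N-methyltransferase. The demethylation and base excision repair genes had a median of 5.79% in 15 of 18, from 3.08% in Polb, the repair polymerase, to 28.9% in Ogt, a glycosyltransferase on the X chromosome that binds the Tet proteins. Over 4 groups 0 promoters of these 4 lists passed edgeR at adjusted p under 0.05, and 1 reader and 1 repair gene did at unadjusted p under 0.05. In the bodies the readers had a median of 65.6%, with 2 of 5 at unadjusted p under 0.05, and the other lists had medians of 52.3%, 71.0% and 79.99%, with 0 of 6, 0 of 7 and 0 of 13.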

How the data were processed

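Oral tissue DNA of 12 mouse samples was analysed by ERRBS. Per the labels, the authors trimmed reads with Trim Galore 0.3.3, aligned them and called methylation with Bismark 0.10.1 on mm9, and deposited for each CpG cytosine and strand the counts of methylated and unmethylated reads, unfiltered and not normalized. The deposited percent column matched these counts throughout and was left aside. Here Python 3.11.15 with NumPy 2.4.6, pandas 2.3.3 and SciPy 1.17.1, and R 4.3.3 with edgeR 4.0.16 and limma 3.58.1, were used.

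Regions came from GENCODE vM1. Promoters and bodies were tested by edgeR's quasi-likelihood test of methylated and unmethylated counts in all 12 samples, where every sample had 10 calls, with Benjamini-Hochberg adjustment over all regions. Exact permutation tests, two-sided, served for single values. For single CpGs the study's settings were followed: cytosines under 10 reads or in the highest 0.1% of coverage were dropped, read numbers were scaled up to the sample of highest median coverage, both strands were summed, CpGs present in all 6 samples were kept, and logistic regression with a likelihood ratio test was run with q-values over all CpGs. For the adjusted level of a region, the mean level of each CpG over the same 12 samples gave the level expected from the CpGs read. Single CpGs were named if called, among the 5 members with the smallest p in a comparison, over 20% in a promoter, or with 1 of the 3 largest SDs at 20 reads in every sample. RefSeq starts were placed by exact match of 16 of 16 promoter sequences in mm9. The tests were also run on simulated data. For single CpGs the simulated reads held no spread between samples, so that run cannot vouch for the logistic calls where samples vary. The 9 genes and all lists were chosen with earlier results of these data known. Replicate numbers were not taken as pairs, because the correlations of same-numbered deviations ran from -0.0211 to 0.009998. Alternatives changed the test, coverage minimum, scaling, strands, q threshold, block and samples, and those on CCGG sites and on the adjusted level were added after seeing the data. The depth of a single CpG, in the median 17 to 33 reads per DMSO and DBP sample among CpGs tested, set its precision. CpG islands and expression were not analysed here.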

Additional observations from a re-analysis of the deposited data

How the results depend on the processing

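Of the 126 settings tried for counts and group levels, 97 left the value within its limit and 29 moved it. The limit was a fixed ratio for counts and the median SD over samples for levels. The 97 include every setting for member calls between DBP and DMSO and for called promoters and bodies. Those counts were 0 and stayed at 0, so they show little about how steady the other results were. Member CpGs called between the unnamed agent and DBP, 1 over 25 points and 4 over 10 points, numbered 0 and 0 by edgeR, 4 and 8 of 176 at a minimum of 5 reads (3945 and 14771 of all 261596), 0 and 1 of 29 at 20 reads (113 and 1999 of all 41996), and 0 and 1 of 79 without scaling of coverage (530 and 1502 of all 127353). Those between BR extract and DBP, 0 and 3, numbered 6 and 9 of 154 at 5 reads (3662 and 14969 of all 226098), and the 3 over 10 points were 0 by edgeR. Over all CpGs the counts over 10 points, 6902 and 8980, fell to 1502 and 1921 without scaling, which had multiplied DBP reads by 1.94 and 2.56, and to 1 and 0 by edgeR. Leaving out 1 sample gave 0 to 2 and 1 to 4 of 79 to 109 member CpGs for the unnamed agent. Over all 127602 to 164811 CpGs tested there the counts were 1239 to 2221 and 6570 to 8214. For BR extract it gave 0 to 4 and 4 to 7 of 56 to 85 member CpGs, beside 1663 to 2286 and 6905 to 10750 of all 104759 to 132431. Between DBP and DMSO it gave 0 member CpGs, beside 8 to 74 and 16 to 116 of all 54869 to 81360. The highest counts for BR extract came without replicate 1 of DBP, and the lowest for the unnamed agent without its replicate 3. The Dnmt1 CpG and the Tet3 site at 38180 bp were called against BR extract in 13 of 14 alternatives, edgeR being the exception, while the Tet1 sites at 12654 and 33421 bp were called in 6 and 8 of 14. The median promoter level of 4.71% became 0.435% without CCGG sites, over 4 promoters. The median body level of 79.6% became 70.3% without them, over 7 bodies. At CpGs with 10 reads in all 12 samples the median over 4 bodies was 91.6%. It rested on 2 CpGs of Dnmt1, 1 of Dnmt3a, 4 of Tet1 and 1 of Tet3, and so was not a level of whole bodies. The unadjusted p of the Tet1 and Uhrf1 bodies stayed under 0.05 without each sample in turn, at 0.00730 to 0.0476 and 0.00698 to 0.0429, and was 0.0832 and 0.179 by the quasi-binomial test and, for Tet1, 0.276 at CpGs with 10 reads in all 12 samples. In the fit with a replicate block, the members called stayed at 0 between DBP and DMSO, 1 and 4 for the unnamed agent, 0 and 3 for BR extract, and 0 promoters and bodies. Over all CpGs this fit called 28 and 57 of 53602, 945 and 7195 of 127353, and 1033 and 8231 of 104409 in these comparisons. It called 0 of all 11840 promoters and 0 of all 10524 bodies. The causes of these shifts were not tested beyond the settings themselves.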

Other observations

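A few CpGs of the members did not have 10 reads in every sample compared and entered the tests only under other settings, and they are named here after their values were seen. In a coding exon of Dnmt3l, 15344 to 15383 bp after the gene start on chromosome 10, 4 neighbouring CpGs were called between BR extract and DBP both at a minimum of 5 reads and without replicate 1 of DBP, which had 8 reads at each. With that sample kept, at 5 reads, the differences ran from -25.7 to -36.7 points, and without it from -31.3 to -43.2 points. The 4 CpGs had similar read totals in each sample, so their calls may rest on the same reads and are not independent. Between the unnamed agent and the same DBP samples, the CpG at 15344 bp was called under both settings, at -25.6 and -31.5 points. The CpG at 15360 bp was called there without replicate 1 of DBP, at -28.6 points, and the remaining ones were not called. At the last of the 4, chosen as the farthest from the MspI site of the group, methylated reads were 5 of 7, 2 of 4 and 3 of 5 with DMSO, 4 of 8, 10 of 14 and 13 of 15 with DBP, 22 of 35, 15 of 24 and 25 of 34 with the unnamed agent, and 37 of 97, 15 of 24 and 9 of 43 with BR extract. The second BR extract sample, at the same 15 of 24 reads as a sample of the unnamed agent, lay between the DBP samples. In an intron of Tet2, 10670 bp after the gene start, an MspI site held 8 of 10, 6 of 6 and 9 of 12 methylated reads with DBP and 30 of 51, 10 of 28 and 1 of 15 with the unnamed agent, and it was called in 2 of 14 alternatives, at -36.2 and -42.2 points.

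The window of Dnmt3a that began 65000 bp after the start was read unevenly, with as few as 4 calls in a sample, and its mean over samples was 24.7% ± 20.2. The window of Tet2 at 10000 bp stood at 54.3% ± 14.2, and 51.9% of all its calls were methylated, or 26.5% without CCGG sites.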
